A study of Homo sapiens with 4 samples.

Results

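The mucin genes examined here were 9 genes chosen by symbol: MUC1, MUC4, MUC5AC, MUC5B, MUC6, MUC13, MUC15, MUC16 and MUC20. They are 9 of the 31907 gene names counted in HGC-27, an established human gastric cancer (GC) cell line. Of the 9 genes, 8 had at least 1 count in some library and 6 were expressed highly enough to be tested. HGC-27 cells received PBS alone or 200 ng/ml recombinant IL-17B (rIL-17B), a cytokine that acts through the receptor IL-17RB, and RNA was collected after 48 h. There were 2 libraries per group (PBS replicates 1 and 2, rIL-17B replicates 1 and 2), and nothing in the labels said that the replicates came from separate cultures, so that the p-values measured only the spread between these libraries. The labels give the same line for all 4 libraries, and the comparison asked whether rIL-17B altered the transcriptome of GC cells.

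Mucins are large glycoproteins whose protein core carries long stretches rich in serine, threonine and proline, to which dense O-linked sugars are attached. Transmembrane mucins (MUC1, MUC4, MUC13, MUC15, MUC16 and MUC20) stay anchored at the cell surface, where they form part of the glycocalyx and can signal through their cytoplasmic tails. Gel-forming mucins (MUC5AC, MUC5B and MUC6) are secreted and build the mucus layer. In the healthy stomach MUC5AC is the product of surface mucous cells and MUC6 that of the neck and gland mucous cells, while MUC1 lines the apical surface of the epithelium. The study used MUC1 together with CK18 (KRT18) as a marker of epithelial differentiation of GC cells. By qRT-PCR in another GC line, it reported lower mRNA of both genes with rIL-17B.

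The longest coding transcripts of the 9 genes were read from GENCODE 29 on GRCh38. Between 30.7% and 48.0% of their codons encoded serine, threonine or proline, with MUC13 lowest and MUC4 highest. Repeat units were searched in frame over a limited range of short lengths, so longer units would have been missed. Within that range, only in MUC1 and MUC20 did the most frequent unit of a length also recur end to end without a mismatch. These units are shown because they mark the parts of both transcripts in which reads from different copies look alike. Capitals mark the serine and threonine codons, the possible sites of O-glycosylation.
MUC1: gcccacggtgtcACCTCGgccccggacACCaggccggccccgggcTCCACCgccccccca
MUC20: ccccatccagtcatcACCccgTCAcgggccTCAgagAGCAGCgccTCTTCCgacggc

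The MUC1 unit of 60 bases had 19 exact copies, 30.1% of the coding part of its longest transcript, and held 5 serine or threonine codons among 20. The MUC20 unit of 57 bases had 10 exact copies and held 7 such codons among 19. Of all windows of 50 bases in the longest MUC1 transcript, 42.4% occurred more than once within that transcript and none occurred in a transcript of another gene. The repeated share was 29.2% for MUC5B, 28.3% for MUC4, 21.4% for MUC5AC and 19.7% for MUC20. It was 1.76% for MUC6, 1.07% for MUC16 and 0% for MUC13 and MUC15. MUC20 differed from the other members, since 69.1% of its windows also lay in transcripts of MUC20-OT1 or the pseudogene MUC20P1, which makes its counts uncertain. MUC5AC and MUC5B shared fewer than 1 window in 100 with each other (0.379% and 0.369%).

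The libraries held between 12888029 and 17555879 counts, and the smallest level that 3 counts can show was between 0.171 and 0.233 CPM (the count divided by the library total and multiplied by 1000000). Intervals and floors cover counting error only, because copies made by PCR were counted as separate reads. rIL-17B replicate 1 stood apart from the other 3 libraries, and whether it came from the same cells as they did was not tested. It had at most 3 counts for 342 genes that had at least 100 in each of the others, and COL1A2, a collagen gene, had 16 counts there against 67635 to 87731. Every value of the rIL-17B group includes this library. Between the 2 PBS libraries 104 of the 16361 genes tested were at least 2-fold apart after 0.5 CPM was added to each value, and between the 2 rIL-17B libraries 2771 were. Of 8 mesenchymal markers, all 8 were at least 2-fold below the PBS mean in rIL-17B replicate 1, as were 18.6% of all genes tested, and their summed level there was 1007 CPM against 51146 and 50183 CPM with PBS and 42776 CPM in rIL-17B replicate 2. The summed level of 8 epithelial markers was 1849 CPM in that library, 795 and 804 CPM with PBS, and 1019 CPM in rIL-17B replicate 2. The keratins KRT8 and KRT18 supplied 1457 and 355 of the 1849 CPM, and the other 6 did not all follow: KRT19 was at 0.068 CPM in rIL-17B replicate 1 against 2.96 and 3.34 CPM with PBS. Where a pair of values is given for a group, replicate 1 comes first. All results on the mucins are therefore given by library, and with and without rIL-17B replicate 1 where they rest on it. In bulk RNA, fewer cells of a type and less RNA per cell cannot be told apart.

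Among the mucins of HGC-27 cells, MUC16, MUC1 and MUC13 supplied nearly all reads. They made up 95.9% and 95.6% of the mucin counts in PBS replicates 1 and 2, and 99.5% and 97.2% in rIL-17B replicates 1 and 2. MUC16 alone held 73.8% and 74.6% with PBS and 84.1% and 74.3% with rIL-17B. The 3 gel-forming mucins together held 58 and 73 counts in the PBS libraries, 18 in rIL-17B replicate 1 and 54 in replicate 2, at most 3.52% of the mucin counts of any library. The summed level of the 9 genes was 135 and 161 CPM with PBS, 350 CPM in rIL-17B replicate 1 and 155 CPM in rIL-17B replicate 2, so that only replicate 1 lay outside the range of the PBS libraries.

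**Figure D1:**
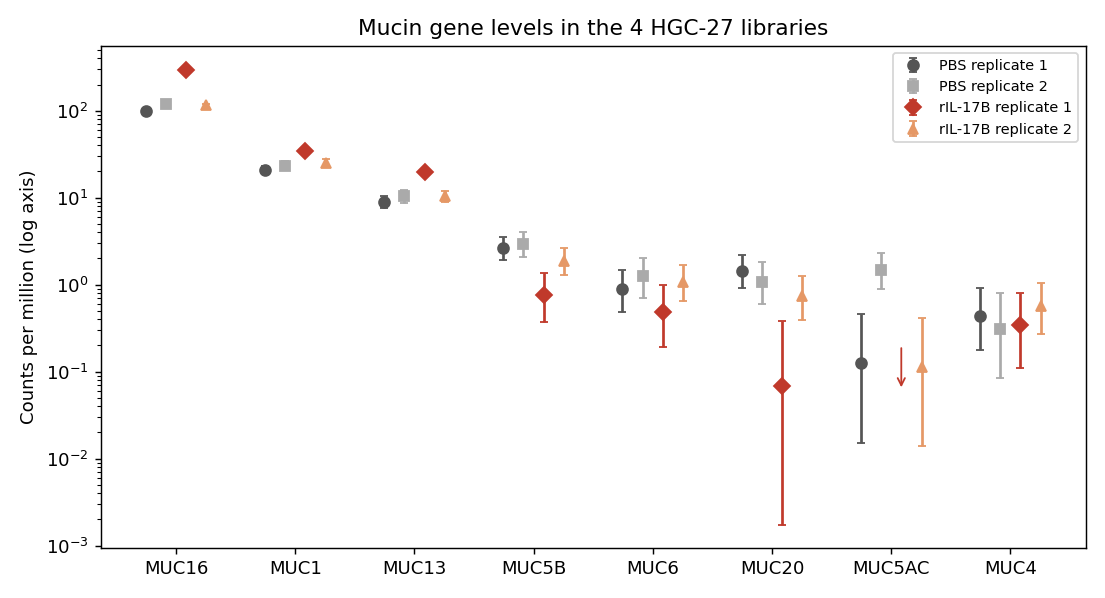
CPM on a log axis for the 8 mucin genes with a count, in each of the 4 libraries; bars are exact 95% Poisson intervals of the count, and the arrow for MUC5AC stands for a count of 0, drawn down from the level that 3 counts would give. MUC16, MUC1 and MUC13 lie above 8 CPM in all 4 libraries, and the other 5 lie below 3 CPM.

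Read counts grow with the length of a transcript, so levels of the mucins were compared with each other as RPKM (CPM per kilobase of the exons annotated in GENCODE 29). On this scale MUC1 was the highest mucin, with 4.69 ± 0.39 RPKM with PBS (SD, n = 2 libraries), although MUC16 had the most reads. This order takes coverage to be even along the exons, which was not tested for the oligo-dT primed cDNA. Reads from the repeats of MUC1, MUC4, MUC5AC, MUC5B and MUC20 may also have been counted incompletely. MUC13 followed with 2.76 ± 0.30 RPKM and MUC16 with 2.50 ± 0.33 RPKM, and the spreads of this pair overlapped. Within each PBS library, however, MUC13 was above MUC16 (2.55 against 2.27 and 2.97 against 2.73 RPKM). The exons of MUC16 covered 43830 bases, those of MUC1 4717 and those of MUC13 3499. Next came MUC20 with 0.298 ± 0.060 RPKM, MUC5B with 0.15 ± 0.012 RPKM and MUC6 with 0.126 ± 0.030 RPKM, the last pair with overlapping spreads. MUC5B was above MUC6 in each PBS library (0.142 against 0.104 and 0.159 against 0.147 RPKM). MUC5AC had 0.046 ± 0.055 RPKM and MUC4 0.018 ± 0.004 RPKM with PBS, and MUC15 had none. The spread of MUC5AC (mean ± SD) overlapped with those of MUC6 and MUC4. The median of 17142 protein-coding names with a count was 3.04 RPKM with PBS, so that MUC1 lay above it and MUC13 and MUC16 just below. With rIL-17B the order of the first 3 was MUC1, MUC16, MUC13 in replicate 1 (7.25, 6.72 and 5.65 RPKM) and MUC1, MUC13, MUC16 in replicate 2 (5.31, 2.98 and 2.63 RPKM). Per length, MUC1 exceeded MUC16 by 1.94 and 1.82 times with PBS, 1.08 times in rIL-17B replicate 1 and 2.02 times in replicate 2.

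**Figure D2:**
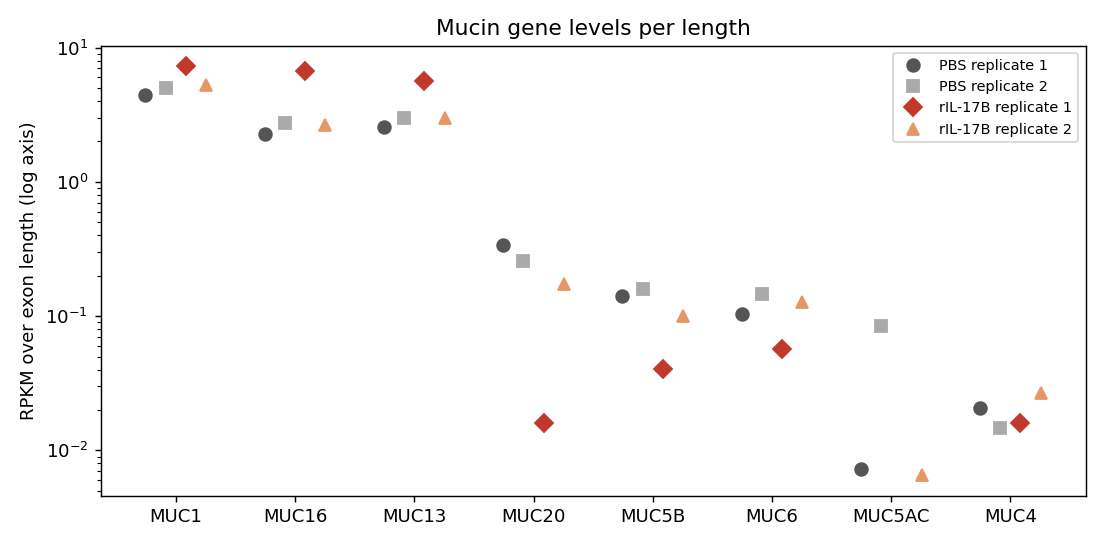
RPKM over exon length on a log axis for 8 mucin genes in each of the 4 libraries (MUC15 had no count, and MUC5AC had none in rIL-17B replicate 1). MUC1, MUC16 and MUC13 lie above 2 RPKM in all libraries, and the other 5 lie below 0.4 RPKM.

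With the quasi-likelihood test of edgeR, adjusted by Benjamini-Hochberg over all genes, 0 of the 16361 genes tested between rIL-17B and PBS had an adjusted p under 0.05 (0%), and accordingly 0 of the 6 mucins tested. The unadjusted p was under 0.05 for 226 genes (1.38%) and again none of the 6 mucins. DESeq2, which tested 31907 gene names, gave 0 genes at an adjusted p under 0.05 and 547 at an unadjusted p under 0.05. Of the 6 mucins, MUC1 and MUC13 had both rIL-17B libraries above the PBS libraries, where 31.5% of all genes tested were. MUC5B and MUC20 were lower in both, where 27.5% of all genes tested were. MUC16 and MUC6 overlapped between the groups. With 2 of 6 mucins in each direction, the counts were close to the share among all genes. The median log2 fold change of the 6 mucins was -0.06, and that of all genes tested was -0.03.

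MUC16 (chromosome 19, 8848844 to 8981342, minus strand, GENCODE 29 on GRCh38) encodes the giant transmembrane mucin that carries the CA125 antigen. It had 1583 and 1544 counts in the PBS libraries (99.5 and 120 CPM), 4306 in rIL-17B replicate 1 and 2025 in replicate 2 (295 and 115 CPM). rIL-17B replicate 1 was far above the other 3 libraries, and rIL-17B replicate 2 lay between the 2 PBS libraries. The group means were 110 ± 14.3 CPM under PBS and 205 ± 127 CPM under rIL-17B (SD, n = 2 each). The log2 fold change was 0.80 (standard error 0.47, edgeR adjusted p = 0.661). It was 0.07 (edgeR adjusted p = 0.813) without rIL-17B replicate 1.

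MUC1 (chromosome 1, 155185824 to 155192916, minus strand) encodes the best studied epithelial transmembrane mucin. It had 331 and 302 counts in the PBS libraries (20.8 and 23.4 CPM), 500 in rIL-17B replicate 1 and 440 in replicate 2 (34.2 and 25.1 CPM). Both rIL-17B libraries were above both PBS libraries, but the 95% Poisson interval of replicate 2 (22.8 to 27.5 CPM) overlapped that of PBS replicate 2 (20.9 to 26.2 CPM). For MUC1 the log2 fold change was 0.34 (standard error 0.17, edgeR adjusted p = 0.661), and 0.18 without rIL-17B replicate 1 (edgeR adjusted p = 0.630).

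MUC13 (chromosome 3, 124905442 to 124953819, minus strand) encodes a transmembrane mucin of gastrointestinal epithelium. It had 142 and 134 counts in the PBS libraries (8.93 and 10.4 CPM), 289 in rIL-17B replicate 1 and 183 in replicate 2 (19.8 and 10.4 CPM). Replicate 2 exceeded PBS replicate 2 only in the next digit (10.42 against 10.40 CPM), so that its separation from the PBS libraries rested on less than the counting error. For MUC13 the log2 fold change was 0.55 (standard error 0.35, edgeR adjusted p = 0.661), and 0.11 without rIL-17B replicate 1 (edgeR adjusted p = 0.878).

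MUC4, MUC15 and MUC20 are the remaining transmembrane members and had at most 23 counts in a library. MUC4 (chromosome 3, 195746765 to 195812277), whose product can associate with the receptor ERBB2, had 7 and 4 counts in the PBS libraries, 5 in rIL-17B replicate 1 and 10 in replicate 2, too few for the test, and the groups overlapped. MUC15 (chromosome 11, 26559033 to 26572233) had no count in any library, which allows a level of up to 0.171 to 0.233 CPM. MUC20 (chromosome 3, 195720882 to 195741123), which can associate with the receptor MET, had 23 and 14 counts in the PBS libraries, 1 in rIL-17B replicate 1 and 13 in replicate 2. Its level was 1.45 and 1.09 CPM in the PBS libraries, 0.068 CPM in rIL-17B replicate 1 (95% Poisson interval 0.0017 to 0.381 CPM) and 0.740 CPM in replicate 2. Both rIL-17B libraries were below both PBS libraries. The log2 fold change was -1.63 (standard error 1.09, edgeR adjusted p = 0.661), and -0.78 without rIL-17B replicate 1 (edgeR adjusted p = 0.672). The near copy MUC20P1 had 2 and 0 counts in the PBS libraries, 7 in rIL-17B replicate 1 and 4 in replicate 2. Summed with it, MUC20 had 1.57 and 1.09 CPM in the PBS libraries and 0.547 and 0.968 CPM in the rIL-17B libraries, so that the groups lay closer together.

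The gel-forming mucins lie in one cluster on chromosome 11 and were all scarce. MUC5B (1223066 to 1262172), a mucin of airways, salivary glands and gallbladder, had 42 and 38 counts in the PBS libraries (2.64 and 2.95 CPM), 11 in rIL-17B replicate 1 and 33 in replicate 2 (0.753 and 1.88 CPM). Both rIL-17B libraries were below both PBS libraries, but the 95% Poisson interval of replicate 2 (1.29 to 2.64 CPM) reached into those of the PBS libraries (1.90 to 3.57 and 2.09 to 4.05 CPM). For MUC5B the log2 fold change was -1.12 (standard error 0.60, edgeR adjusted p = 0.661), and -0.57 without rIL-17B replicate 1 (edgeR adjusted p = 0.584). MUC5B overlaps the antisense gene MUC5B-AS1 over 434 exon bases, and use of strand in counting was not stated. MUC5B-AS1 was listed in none of the 4 libraries. Names at 0 were left out and the annotation is not known, so it may have had 0 counts or not been counted.

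MUC6 (1012821 to 1036706), the gland mucin of the stomach, had 14 and 16 counts in the PBS libraries, 7 in rIL-17B replicate 1 and 19 in replicate 2 (0.880, 1.24, 0.479 and 1.08 CPM in that order), with overlapping groups. Its log2 fold change was -0.47 (standard error 0.62, edgeR adjusted p = 0.726) and turned to 0.04 without rIL-17B replicate 1 (edgeR adjusted p = 0.991). MUC5AC (1157953 to 1201138), the surface mucin of the stomach, had 2 and 19 counts in the PBS libraries, 0 in rIL-17B replicate 1 and 2 in replicate 2. PBS replicate 2 alone stood above the floor, and the other 3 libraries could not be told apart at this depth. MUC5AC did not pass the filter on low counts.

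**Figure D3:**
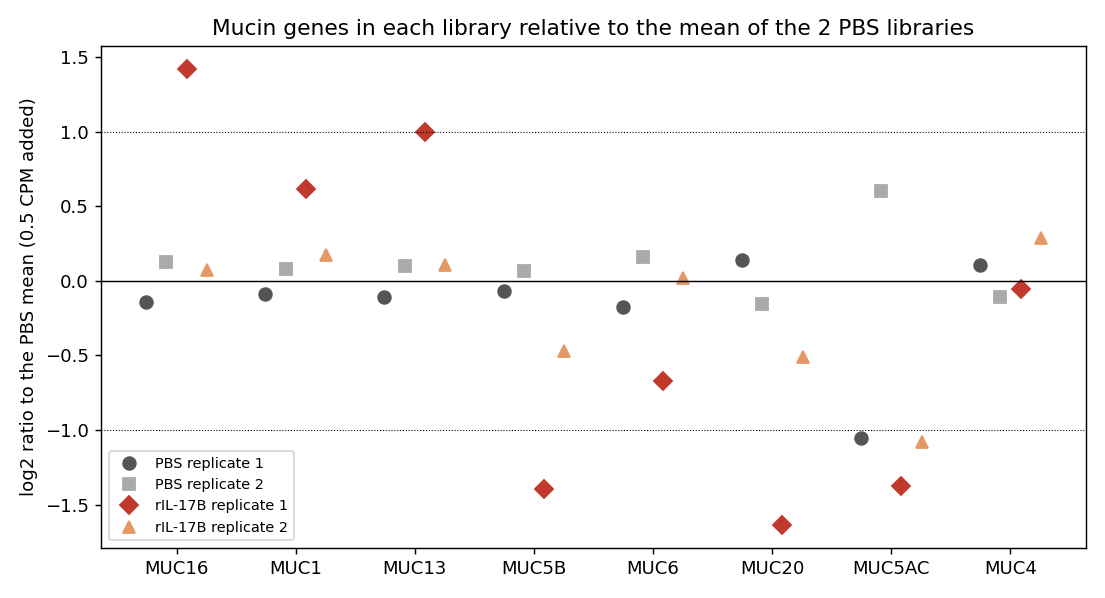
log2 ratio of each library to the mean of the 2 PBS libraries, with 0.5 CPM added, for 8 mucin genes; dotted lines mark 2-fold. rIL-17B replicate 1 lies above the other libraries for MUC16, MUC1 and MUC13 and below them for MUC5B, MUC6, MUC20 and MUC5AC, while rIL-17B replicate 2 lies within 2-fold of the PBS mean for all genes but MUC5AC, where PBS replicate 1 does not either.

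Most of the difference between the groups came from rIL-17B replicate 1. In that library MUC16 was at least 2-fold above the PBS mean with 0.5 CPM added, as were 2.61% of all genes tested, and MUC13 was 2.05 times the PBS mean in CPM and just under 2-fold after the addition. MUC5B and MUC20 were at least 2-fold below the PBS mean, as were 18.6% of all genes tested. In rIL-17B replicate 2 none of the 6 mucins was 2-fold higher or lower, against 0.0611% of all genes tested that were higher and 0.575% that were lower. When rIL-17B replicate 1 was left out, edgeR's test called 504 of 17103 genes (2.95%) and none of the 7 mucins that then passed the filter. When replicate 2 was left out instead, the test called 9489 of 17223 genes (55.1%) and 6 of 7 mucins, of which MUC16, MUC1 and MUC13 were higher and MUC5AC, MUC5B and MUC20 lower. The log2 fold change of MUC16 was then 1.29 and that of MUC5B -2.01. Either fit has a single rIL-17B library, which is assumed to vary as the PBS libraries do, and thus compares that library with PBS rather than the treatment.

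The 3 abundant mucins were not raised equally in that library. MUC16 in rIL-17B replicate 1 was 2.69 times the PBS mean in CPM, MUC13 2.05 times and MUC1 1.55 times, whereas in replicate 2 the values were 1.05, 1.08 and 1.13. The ratio of MUC16 to MUC1 counts was accordingly 8.61 in rIL-17B replicate 1 and between 4.6 and 5.11 in the other 3 libraries. By the log2 ratio of each library to the mean of the 4 libraries (0.5 CPM added), the genes most like MUC16 among 10914 genes with a mean of at least 100 counts were EPPK1, LMO1 and MAP3K9, with root mean square differences of 0.12, 0.13 and 0.14. EPPK1, which encodes the keratin-binding protein epiplakin, had 19.2 and 19.6 CPM under PBS against 46.8 and 20.4 CPM under rIL-17B. MUC13 ranked 47 with a difference of 0.21 and MUC1 ranked 1683 with 0.39. Such likeness rests on 4 libraries, of which 1 carries most of the variation.

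The promoters of MUC1, MUC13 and MUC16, the 3 mucins with the most reads, are shown from RefSeq on GRCh38.p14. Each is given as the 250 bases before an annotated start, 5′ to 3′ on the minus strand. Capitals mark matches on either strand to 4 short motifs: the GC box GGGCGG, the TATA box TATAAA, the E-box CACCTG and the AP-1 site TGANTCA, where neighbouring GC boxes may overlap. The MUC1 window is chr1:155192916-155193165, that of MUC13 is chr3:124934752-124935001 and that of MUC16 is chr19:9010410-9010659.
MUC1: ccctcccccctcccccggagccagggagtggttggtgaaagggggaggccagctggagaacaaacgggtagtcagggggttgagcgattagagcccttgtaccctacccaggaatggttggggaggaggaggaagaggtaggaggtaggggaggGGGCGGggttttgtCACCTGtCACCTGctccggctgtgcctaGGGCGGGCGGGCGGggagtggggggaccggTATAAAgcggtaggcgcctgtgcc
MUC13: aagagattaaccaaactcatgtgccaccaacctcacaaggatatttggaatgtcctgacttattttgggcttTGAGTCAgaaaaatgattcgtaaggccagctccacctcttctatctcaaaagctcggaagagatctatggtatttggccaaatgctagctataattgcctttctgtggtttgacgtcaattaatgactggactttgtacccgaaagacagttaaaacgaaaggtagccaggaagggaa
MUC16: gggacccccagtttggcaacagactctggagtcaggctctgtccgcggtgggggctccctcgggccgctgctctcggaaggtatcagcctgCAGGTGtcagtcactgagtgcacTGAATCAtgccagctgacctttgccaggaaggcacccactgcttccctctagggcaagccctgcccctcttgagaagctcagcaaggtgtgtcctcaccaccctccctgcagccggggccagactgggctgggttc

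The MUC1 window held 4 GC boxes, 1 TATA box and 2 E-boxes and had a GC content of 66%. The MUC13 window held 1 AP-1 match and was 41.6% GC, and the MUC16 window held 1 E-box and 1 AP-1 match and was 63.6% GC. Of 35116 windows of the same length, 42.6% held a GC box, 10.7% a TATA box, 17.5% the E-box and 6.57% the AP-1 letters, and their median GC content was 58%. No motif of the 4 was present in all 3 windows. The RefSeq starts of MUC16 lie upstream of its GENCODE 29 start, and the window before a second RefSeq start at 9065751 held 1 GC box and no E-box or AP-1 match, so that the matches of MUC16 depend on the start chosen. The RefSeq start of MUC13 at 124934751 lies downstream of its GENCODE 29 start at 124953819. The window before the latter was not read, so that the matches of MUC13 hold for the RefSeq start only. A second MUC1 start at 155192909 gave the same counts of matches. Such matches describe letters in a window and no binding was measured.

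Genes that build, modify or bind mucins were described from lists written by hand. Within these lists, genes were ranked by mean CPM, without regard to their length. Of all 16361 genes tested by edgeR, 7753 were higher and 8608 lower under rIL-17B, and 1.38% had an unadjusted p under 0.05. Of 36 genes of mucin-type O-glycosylation 21 were tested, and 0 had an unadjusted p under 0.05 by edgeR. Of the 21, 10 were higher and 11 lower under rIL-17B (median log2 fold change -0.07). Their summed level was between 894 and 911 CPM in all 4 libraries, but its members went both ways. In rIL-17B replicate 1, 2 of the 21 were at least 2-fold above the PBS mean and 6 at least 2-fold below it, where 2.61% and 18.6% of all genes tested were. The enzymes with the highest mean were ST3GAL4, a sialyltransferase, with 115 and 115 CPM under PBS against 204 and 127 CPM under rIL-17B, and GALNT10, which adds the first sugar, with 137 and 143 CPM under PBS against 84.2 and 135 CPM under rIL-17B. C1GALT1 (picked after seeing its values), the enzyme that extends this sugar to the core structure, showed 65.2 and 58.9 CPM under PBS against 13.8 and 55.5 CPM under rIL-17B.

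Of 15 other mucin or mucin-like genes 10 had a count and 3 were tested (0 with an unadjusted p under 0.05, 2 higher and 1 lower, median log2 fold change 0.46). These were MCAM, CD164 and OVGP1, which carry mucin numbers as older names. MCAM had 333 and 325 CPM under PBS against 575 and 381 CPM under rIL-17B, and CD164 had 384 and 391.9 CPM under PBS against 320 and 357 CPM under rIL-17B. MUC2, the intestinal gel-forming mucin, was picked after seeing its values and had between 2 and 4 counts in each library. Of 24 genes of gastric and intestinal mucous cells 18 had a count and 6 were tested, 3 higher and 3 lower, with 0 at an unadjusted p under 0.05 and a median log2 fold change of 0.04. The highest of these were KLF4 (43.2 and 45.2 CPM under PBS against 63.3 and 48.4 CPM under rIL-17B) and CREB3L1 (46.7 and 50.7 CPM under PBS against 2.05 and 35.4 CPM under rIL-17B). TFF1 and TFF3, secreted partners of gastric and intestinal mucins, had no count in any library, and TFF2 had 1 count in PBS replicate 1 (all 3 picked after seeing their values).

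Of 12 proteins that bind, shed or signal with transmembrane mucins all 12 were tested, and 0 had an unadjusted p under 0.05. Of the 12, 3 were higher and 9 lower (median log2 fold change -0.17), where 8608 of all 16361 genes tested were lower. The highest were MMP14, a membrane protease, with 610 and 640 CPM under PBS against 0.547 and 503 CPM under rIL-17B, and CTNNB1, the β-catenin gene, with 350 and 375 CPM under PBS against 384 and 348 CPM under rIL-17B. MSLN encodes mesothelin, the binding partner of MUC16, and was picked after seeing its values. It had 42.5 and 45.5 CPM under PBS against 79.4 and 46.5 CPM under rIL-17B (log2 fold change 0.43, standard error 0.26, edgeR adjusted p = 0.661).

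Markers of cell types also differed between rIL-17B replicate 1 and the other libraries, in both directions. Of 8 epithelial markers 7 were tested, of which 4 were higher under rIL-17B with no overlap between the groups (31.5% of all genes tested) and 3 were lower, 1 of them, CLDN4, with no overlap (27.5% of all genes tested), with a list median log2 fold change of 0.44. The 8 mesenchymal markers were all lower (median -1.02), as were 8608 of all 16361 genes tested. All 8 were lower with no overlap between the groups, where 27.5% of all genes tested were. Relative to the PBS mean (0.5 CPM added), their median log2 ratio fell to -3.16 for replicate 1 of rIL-17B but only to -0.21 for replicate 2. None of either list had an unadjusted p under 0.05. KRT8, a simple-epithelial keratin, had 601 and 611 CPM under PBS against 1457 and 787 CPM under rIL-17B. KRT18, its partner, had 169 and 165 CPM under PBS against 355 and 207 CPM under rIL-17B (log2 fold change 0.66, standard error 0.26, edgeR adjusted p = 0.661). CDH1 (E-cadherin) had between 7 and 11 counts in each library, and FN1 (fibronectin), a mesenchymal marker, had 33131 and 32458 CPM under PBS against 149 and 27450 CPM under rIL-17B. Of 8 monocyte markers, checked because the protocol in the labels speaks of monocytes, the summed level was between 8.62 and 11.2 CPM. Of these CSF1R was the highest, with 3.90 and 5.59 CPM under PBS against 8.14 and 6.15 CPM under rIL-17B, and in rIL-17B replicate 1 it supplied most of the sum while PTPRC (CD45), ITGAM and LYZ were at 0 counts. In no library did CD68 have over 2 counts, CD14 over 23 or PTPRC over 47. The part of these differences in the mucin values was not tested.

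**Figure D4:**
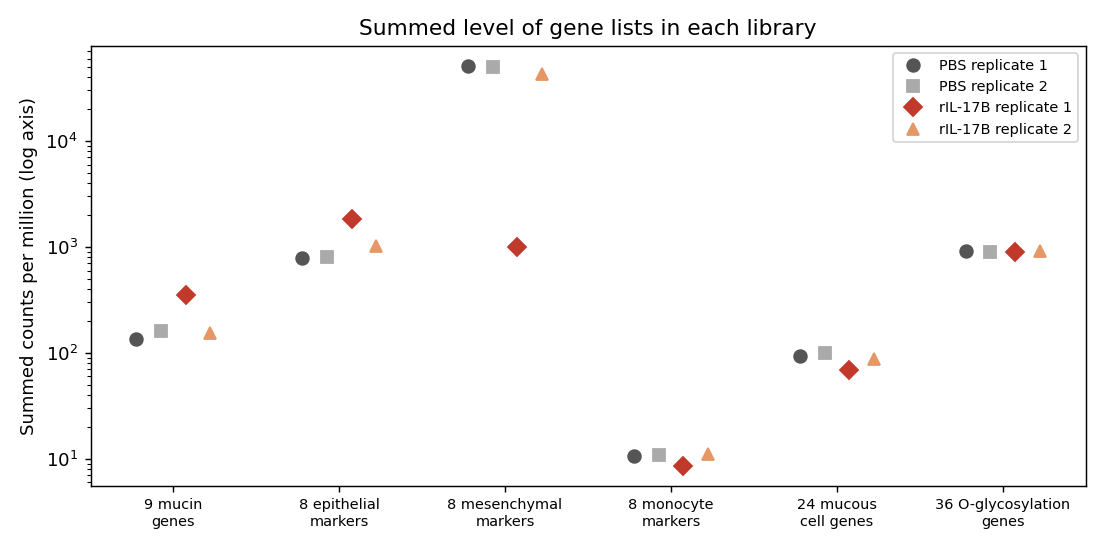
Summed CPM on a log axis of the mucin genes and of 5 other gene lists in each of the 4 libraries. In rIL-17B replicate 1 the mucins (350 CPM) and the epithelial markers (1849 CPM) are highest and the mesenchymal markers (1007 CPM) lowest, while the O-glycosylation genes stay between 894 and 911 CPM.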

How the data were processed

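cDNA of HGC-27 cells was made by Smart-seq2 with an oligo-dT primer, which favours polyadenylated RNA. The authors deposited raw read counts per gene name, 1 table per library, without names at 0. The submitters' processing notes name Bowtie2 2.2.3, HISAT2 2.1.0, TopHat2, HTSeq 0.6.0 and the build hg38. Which annotation was counted, and whether by strand, is not given in the sources used here. Repeated names (83 to 98 per library) were kept once, and 22 to 25 entries per library turned into spreadsheet dates were left out. A missing gene was given 0 counts. CPM is the count over the library total, and RPKM divides it by the union of exons in GENCODE 29, where 97.8% of names were found once. The 2 replicates of a group differed by more than sampling noise (chi-square per degree of freedom 3.66 with PBS and 140 with rIL-17B).

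rIL-17B was compared with PBS by edgeR 4.0.16 in R 4.3.3 (TMM, filterByExpr, quasi-likelihood F test, Benjamini-Hochberg over all genes, threshold 0.05), tested on simulated data. The simulated libraries had the spread of the PBS libraries, which is narrower than that between the rIL-17B libraries. The simulation therefore does not show what the test could find in these data. A standard error is the log2 fold change over the square root of F. Alternatives included DESeq2 1.42.0. Every mucin was named. Of the other lists, written by hand, the genes with an unadjusted p under 0.05, or else the 2 with the highest mean CPM, were named, and so were the 3 tested other mucins, lineage markers and further genes marked as picked after seeing their values. The mucins and lists were chosen with earlier results of these data known. Tables and sequences were handled with Python 3.11.15.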

Additional observations from a re-analysis of the deposited data

How the results depend on the processing

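The alternatives were upper-quartile scaling, library totals only, DESeq2, no filter, at least 10 counts in every library, repeated names summed and a replicate block. The setting of at least 10 counts covered MUC1, MUC5B, MUC13 and MUC16 only. All used every library, and 0 genes of any kind passed, so a mucin's side of the threshold says little there. In the 40 values, every log2 fold change of the 6 tested mucins kept its direction and its side of the threshold. Leaving out 1 library in turn changed this for 6 of 24 values, and all 6 came from leaving out an rIL-17B library. The genes past the threshold numbered 0 with all libraries and between 0 and 9489 when 1 was left out (504 without rIL-17B replicate 1, 9489 without rIL-17B replicate 2 and 0 without either PBS library). The log2 fold change of MUC6 ranged from -1.25 (without rIL-17B replicate 2) to 0.041 (without rIL-17B replicate 1) and so changed direction. MUC1, MUC5B, MUC13, MUC16 and MUC20 passed the threshold without rIL-17B replicate 2. The cause was not tested, but such fits take their spread from the 2 PBS libraries. With the replicate number as a replicate block 0 genes passed, and the log2 fold change was 0.34 for MUC1, 0.51 for MUC13, 0.68 for MUC16, -2.04 for MUC20, -1.27 for MUC5B and -0.58 for MUC6. Nothing in the labels pairs same-numbered libraries, whose deviations correlated at 0.080 across genes. Group means in CPM moved by at most 4.10% with TMM-scaled (factors 0.970 to 1.07, the highest in rIL-17B replicate 1) and 1.67% with deposited totals. Depth limits MUC4, MUC5AC, MUC6, MUC15 and MUC20, each with at most 23 counts per library.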
